A study of Rattus rattus with 8 samples.

Results

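The 34 genes described here encode proteins of mitosis, the kinetochore and the spindle, and were taken by symbol from a list of regulators of the G2 and M phases. Each of the 34 symbols matched 1 row of the 30957 genes in the count table, and all 34 had enough counts to be among the 12983 genes tested. They were measured by RNA sequencing in 8 libraries of cultured heart muscle cells (cardiomyocytes) of newborn rats of the SD strain, aged 1 to 3 days, sorted by DNA content into diploid (2n) and tetraploid (4n) cells, with 4 libraries per group from independent experiments. Both groups had the same history. They were enriched by differential adherence, kept for 24 h in medium with AraC (0.2 mM), which blocks DNA synthesis, starved of serum, held at 1% oxygen for 48 h and stained with the DNA dye Hoechst at 2 µg/mL. There was no normoxic group and no unsorted group, so every value below compares 4n with 2n cells of hypoxic cultures. The question asked of these genes was how far the 4n gate carried transcripts of cycling G2 and M cells.

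Transcripts of these genes accumulate in G2 and fall after division, because their promoters are held silent by the DREAM repressor complex in resting cells and are activated late in the cycle by B-Myb and FoxM1. Cyclin B1 with Cdk1 starts mitosis, the kinetochore and spindle proteins attach and move the chromosomes, and the anaphase-promoting complex ends it. A cell in G2 or M has the same DNA content as a tetraploid or binucleated cell and falls into the same gate. Neonatal rat heart muscle cells are leaving the cell cycle and often become binucleated, whereas the fibroblasts of such cultures can go on dividing.

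Libraries held 14783521 to 21033772 counts, of which the 34 genes took 0.115% to 0.157% in 2n and 0.0971% to 0.202% in 4n. The lowest count of any of these genes in any library was 77, for Pttg1 in 4n replicate 2. Genes of the mitochondrial chromosome took 2.87% to 3.82% of a 2n library and 3.71% of 4n replicate 1, but 24.1% to 25.9% in 4n replicates 2, 3 and 4. The 11 markers of cardiomyocytes were detected in every library, at a summed level of 535 to 1074 CPM (counts relative to the scaled library size) in 2n and of 4676 to 35779 CPM in 4n, and 9 of 10 fibroblast markers at 44458 to 57743 CPM in 2n and 29541 to 51643 CPM in 4n. The 10th, Col1a2, was listed at 0 in all 8 libraries. Both groups therefore carried transcripts of both cell types under the cardiomyocyte label, and which cells the mitotic transcripts came from was not tested. In bulk RNA, fewer cells of a type and less RNA per cell cannot be told apart.

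All 34 genes had a positive log2 fold change of 4n against 2n, from 0.18 to 0.84, with a median of 0.42, a fold of 1.33. The median over all 12983 genes was -0.02. None of the 34 passed the threshold in the fit paired by replicate number (quasi-likelihood test in edgeR, adjusted p by Benjamini and Hochberg from 0.0597 to 0.453), where 4.27% of all genes were called higher and 0.608% lower in 4n. At an unadjusted p under 0.05 the count was 13 of 34, or 38.2%, all higher in 4n, against 16.9% of all genes. Without the pairing 0 of 34 passed as well, with 2.67% of all genes called higher and 0.0077% lower, and 13 of 34 at an unadjusted p under 0.05 (12.6% of all genes). DESeq2 with the pairing called Ccnb1, Aurka and Ube2c (adjusted p = 0.00357, 0.0207 and 0.0485), where 8.94% of all genes were called higher, and limma-voom called Ccnb1 (adjusted p = 0.0452), where 6.89% were. Without the pair of replicate 1, edgeR called Aurka (log2 fold change 0.99, adjusted p = 0.0492), where 9.65% of all genes were called higher.

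The 4 pairs of libraries did not give the same picture. In the pairs of replicates 1, 3 and 4 all 34 genes were higher in 4n, with medians of 0.36, 0.76 and 0.84 on the log2 scale, and 25.9% of all genes had that pattern. In the pair of replicate 2, 31 of 34 genes were lower in 4n, with a median of -0.31 and a range of -0.63 to 0.18. Higher in 4n in that pair were 3 of 34, or 8.82%, against 48.9% of all genes. Higher in the other 3 pairs and lower in pair 2 were thus 31 of 34 genes, or 91.2%, against 5.75% of all genes. Aurka (0.18), Ncaph (0.09) and Ccnb1 (0.04) were the 3 genes above 0 in pair 2. For each of the 34 genes, pair 2 had the lowest ratio of the 4, as it did for 20.9% of all genes. A single pair allows no test of whether it differs from the others. Genes that rise and fall together in the cell cycle are not independent observations. Counts out of 34, here and below, thus rest on 4 pairs of libraries.

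**Figure D1:**
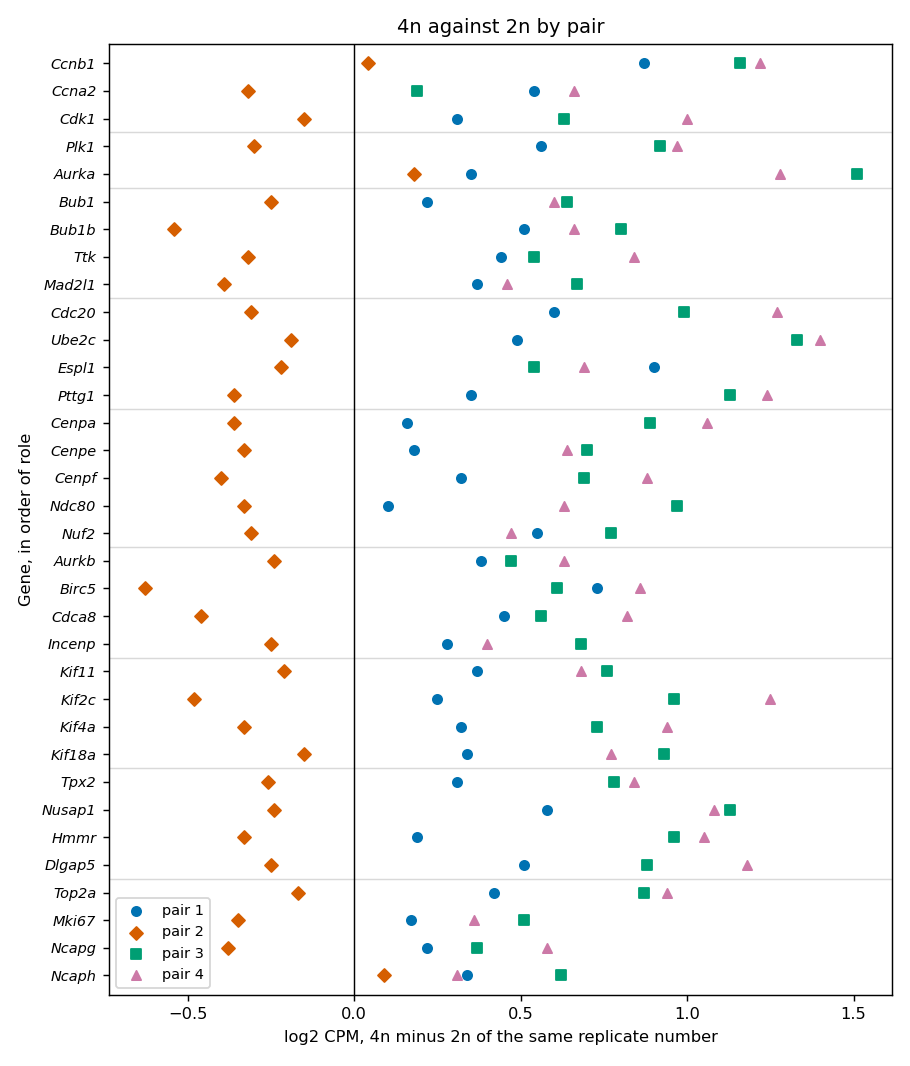
Difference in log2 CPM between the 4n and the 2n library of the same replicate number (horizontal axis) for each of the 34 genes (rows, grouped by role), with 1 point per pair. Pairs 1, 3 and 4 lie right of 0 for every gene, and pair 2 lies left of 0 for 31 of 34.

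The cyclins and their kinase are the engine of entry into mitosis. Ccnb1, cyclin B1, on chromosome 2 from 30783915 to 30791221 in Rnor_6.0, stood at 25.2, 27.2, 24.4 and 22.6 CPM in 2n replicates 1 to 4 and at 46.1, 28.0, 54.7 and 52.7 CPM in 4n replicates 1 to 4. It was the single gene of the 34 whose groups did not overlap, a pattern held by 7.68% of all genes, and 4n replicate 2 stood just above the highest 2n library. Its log2 fold change was 0.83 ± 0.20 (SE, edgeR adjusted p = 0.0597), from 24.9 ± 1.92 to 45.4 ± 12.2 CPM (SD, n = 4 each). Cdk1, the kinase that cyclin B1 activates (chromosome 20, 20576377 to 20591549), had 57.1, 61.4, 49.3 and 42.4 CPM in 2n and 70.9, 55.3, 76.5 and 84.7 CPM in 4n. Here 4n replicate 2 lay inside the 2n range and the other 3 4n libraries above it (log2 fold change 0.45 ± 0.18 SE, edgeR adjusted p = 0.149). Ccna2, cyclin A2, which acts in S phase as well as in G2, had 52.1, 57.3, 56.5 and 38.3 CPM in 2n against 75.5, 46, 64.3 and 60.5 CPM in 4n. Its log2 fold change, 0.27 ± 0.16 (SE, edgeR adjusted p = 0.302), was the lowest of these 3, and pair 3 gave 0.19 where Ccnb1 gave 1.16. The span of Ccna2 overlaps that of Exosc9 in the table, so reads may have been shared between them.

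Plk1 and Aurka are kinases of centrosome maturation and of the spindle poles. Aurka, on chromosome 3 from 170364181 to 170378210, had 17.0, 10.8, 10.2 and 11.6 CPM in 2n and 21.6, 12.2, 29.4 and 28.3 CPM in 4n. The groups overlapped through 2n replicate 1, the highest of the 2n libraries, and 4n replicate 2. At 0.84 ± 0.25 (SE, edgeR adjusted p = 0.0843), its log2 fold change was the highest of the 34 genes, and its pairs gave 0.35, 0.18, 1.51 and 1.28. Plk1 had 41.0, 32.1, 27.0 and 26.1 CPM in 2n against 60.4, 26.1, 51.0 and 51.2 CPM in 4n (log2 fold change 0.55 ± 0.22 SE, edgeR adjusted p = 0.151). Replicates 1, 3 and 4 of 4n were all above the 2n libraries, and 4n replicate 2 was level with the lowest of them.

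Genes of anaphase control had the larger differences after these kinases, with log2 fold changes of 0.49 to 0.76. Ube2c, the ubiquitin-conjugating enzyme of the anaphase-promoting complex, had 0.76 ± 0.29, and Cdc20, an activator of that complex, 0.65 ± 0.26 (SE, edgeR adjusted p = 0.146 and 0.163). Espl1, separase, which cuts the cohesin that holds sister chromatids, had 18.4, 18.6, 19.2 and 15.3 CPM in 2n and 34.4, 16.0, 27.9 and 24.7 CPM in 4n. It was the 1 gene of the 34 with its largest ratio in pair 1, at 0.90 (log2 fold change 0.49 ± 0.18 SE, edgeR adjusted p = 0.132). Pttg1, securin, the inhibitor of separase, had 10.2, 7.38, 5.94 and 7.19 CPM in 2n and 13.1, 5.73, 13.2 and 17.2 CPM in 4n. Here 4n replicate 2 was below every 2n library, and the fold change was 0.61 ± 0.28 (SE, edgeR adjusted p = 0.183).

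Spindle checkpoint genes, whose products hold back anaphase until all chromosomes are attached, lay close together, with log2 fold changes of 0.28 to 0.38. At an unadjusted p under 0.05 (edgeR), 0 of 4 were higher in 4n, against 16.9% of all genes. A count over so few genes does not set a role group apart. Ttk, the kinase Mps1, had 20.9, 29.0, 21.5 and 18.4 CPM in 2n and 28.5, 23.2, 31.3 and 33.0 CPM in 4n. Its groups overlapped on both sides, since 2n replicate 2 exceeded 4n replicates 1 and 2 (log2 fold change 0.38 ± 0.18 SE, edgeR adjusted p = 0.210). Mad2l1, the checkpoint protein that binds Cdc20, had 15.3, 22.6, 18.2 and 14.4 CPM in 2n and 19.8, 17.3, 28.9 and 19.9 CPM in 4n (0.28 ± 0.18 SE, edgeR adjusted p = 0.323). In this gene 4n replicate 3 alone was above all 2n libraries. Bub1 and Bub1b, the checkpoint kinase and its relative BubR1, had fold changes of 0.31 and 0.37.

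Centromere and kinetochore genes had fold changes of 0.30 to 0.45. Of these, 0 of 5 were higher in 4n at an unadjusted p under 0.05 (edgeR), against 16.9% of all genes, again too few genes to set the group apart. Nuf2 and Ndc80 are partners in the complex that grips microtubules. Nuf2 had 17.4, 23.6, 20 and 24.4 CPM in 2n and 25.6, 19.0, 34.1 and 33.8 CPM in 4n (log2 fold change 0.37 ± 0.18 SE, edgeR adjusted p = 0.201). Ndc80 had 35.4, 34.2, 27.4 and 28.9 CPM in 2n and 38.0, 27.2, 53.9 and 44.6 CPM in 4n (0.35 ± 0.21 SE, edgeR adjusted p = 0.313). In both, the 4n libraries other than replicate 2 were above all 2n libraries, though Ndc80 differed by 0.10 in pair 1, the smallest ratio of any of the 34 genes in that pair. Cenpa, the histone H3 variant that marks centromeres, had a fold change of 0.45, Cenpe, a kinetochore motor, 0.30, and Cenpf, an outer kinetochore protein, 0.38.

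The chromosomal passenger complex corrects wrong attachments and later acts in the midzone, and its 4 genes had fold changes of 0.28 to 0.41. Aurkb, its kinase, had 34.8, 32.2, 32.7 and 26.2 CPM in 2n and 45.3, 27.2, 45.2 and 40.8 CPM in 4n (log2 fold change 0.31 ± 0.15 SE, edgeR adjusted p = 0.201). Birc5, survivin, had 12.5, 15.1, 15.5 and 11.6 CPM in 2n and 20.7, 9.74, 23.7 and 21.1 CPM in 4n (0.41 ± 0.25 SE, edgeR adjusted p = 0.310). The ratio of Birc5 in pair 2, -0.63, was the lowest of the 34, with 4n replicate 2 below all 2n libraries. Cdca8, borealin, and Incenp, the scaffold of the complex, had fold changes of 0.35 and 0.28.

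Mitotic kinesins had fold changes of 0.40 to 0.51. Kif11, the motor that pushes the spindle poles apart, had 45.1, 51.9, 47.2 and 41.2 CPM in 2n and 58.2, 44.9, 80.0 and 66.3 CPM in 4n (log2 fold change 0.40 ± 0.16 SE, edgeR adjusted p = 0.149). Kif2c, a depolymerase of microtubules, had 21.0, 20.7, 19.2 and 15.2 CPM in 2n and 25.0, 14.8, 37.4 and 36.3 CPM in 4n (0.51 ± 0.29 SE, edgeR adjusted p = 0.297). Kif2c had the larger fold change and the wider spread over pairs, from -0.48 in pair 2 to 1.25 in pair 4. Kif4a, a motor bound to chromosomes, had 0.42, and Kif18a, which damps chromosome movement, 0.48.

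Spindle assembly factors, proteins that nucleate or bundle microtubules near chromosomes, had fold changes of 0.42 to 0.65. Nusap1 had 23.9, 25.8, 21.8 and 22.8 CPM in 2n and 35.9, 21.9, 47.9 and 48.2 CPM in 4n (log2 fold change 0.65 ± 0.24 SE, edgeR adjusted p = 0.130). Its 2n libraries lay close together, and 4n replicate 2 fell among them. Hmmr had 42.7, 35.8, 32.4 and 26.9 CPM in 2n and 48.6, 28.3, 63.2 and 55.8 CPM in 4n (0.47 ± 0.25 SE, edgeR adjusted p = 0.256). Dlgap5 and Tpx2, an activator of Aurora A, had fold changes of 0.58 and 0.42.

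Genes of chromosome structure had log2 fold changes of 0.18 to 0.52, and Mki67 and Ncapg among them had the lowest of the 34. Ncaph, a subunit of condensin I, had 19.1, 28.4, 25.7 and 23.5 CPM in 2n and 24.2, 30.3, 39.5 and 29.1 CPM in 4n. It was the exception in which 4n replicate 1, not 4n replicate 2, was the lowest 4n library, and its pairs differed least, from 0.09 to 0.62 (log2 fold change 0.34 ± 0.11 SE, edgeR adjusted p = 0.103). Ncapg, another subunit of the same complex, had 20.3, 21.4, 15.0 and 12.8 CPM in 2n and 23.7, 16.4, 19.4 and 19.2 CPM in 4n (0.20 ± 0.17 SE, edgeR adjusted p = 0.453). Top2a, the topoisomerase that untangles chromosomes (chromosome 10, 86901007 to 86932154), had 111, 132, 126 and 100.0 CPM in 2n and 148, 117, 229 and 193 CPM in 4n. Its log2 fold change was 0.52 ± 0.19 (SE, edgeR adjusted p = 0.128). Mki67, the proliferation marker Ki-67 (chromosome 1, 207993895 to 208020454), had 209, 179, 166 and 143 CPM in 2n and 236, 140, 237 and 183 CPM in 4n. The gap between its groups was the smallest of the 34, at 0.18 ± 0.14 (SE, edgeR adjusted p = 0.442), and 2n replicate 1 exceeded 4n replicates 2 and 4.

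**Figure D2:**
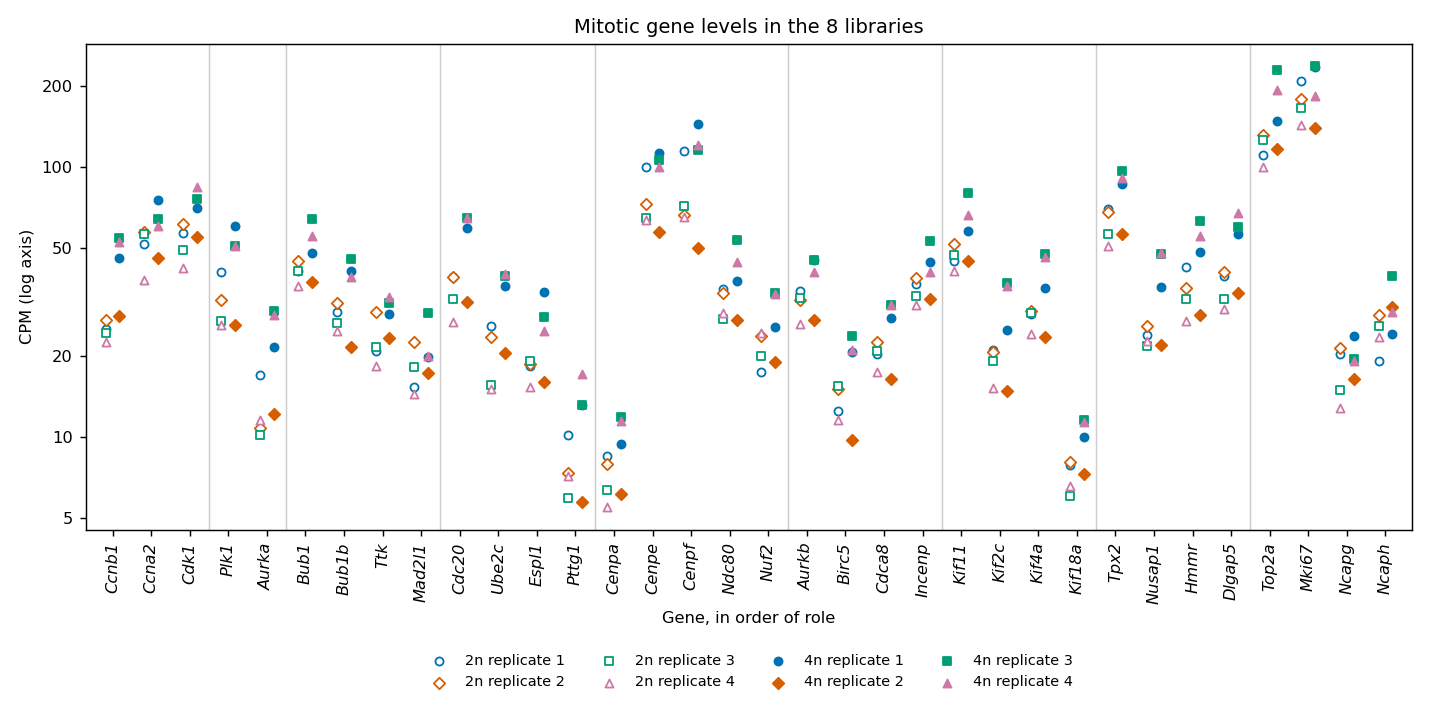
CPM of the 34 genes (log axis) in each library, with open symbols for 2n, filled symbols for 4n, 1 shape and colour per replicate number, and grey lines between role groups. The filled diamonds, 4n replicate 2, lie among or below the open symbols for 32 of 34 genes, and the other filled symbols lie above all open ones for 29.

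The summed level of the 34 genes was 1412, 1360, 1217 and 1071 CPM in 2n replicates 1 to 4 and 1814, 1123, 2036 and 1864 CPM in 4n replicates 1 to 4. Replicates 1, 3 and 4 of 4n stood above every 2n library, and 4n replicate 2 above 1 of them. For 33 of 34 genes 4n replicate 2 was the lowest 4n library (21.9% of all genes). It was below all 4 2n libraries for 10 genes (29.4%, against 23.3% of all genes), within their range for 22 and above it for Ccnb1 and Ncaph (24.9% of all genes). In 29 of 34 genes, or 85.3%, 4n replicates 1, 3 and 4 were all above all 2n libraries, a pattern that 10.3% of all genes had. The 5 others were Ttk, Mad2l1, Mki67, Ncapg and Ncaph, named here after their values were seen. Among 2n libraries, replicate 4 was the lowest for 27 genes, and replicate 2 the highest for 17 and replicate 1 for 14.

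Without the pair of replicate 2 in the fit, the median log2 fold change was 0.65, and all 34 genes had an unadjusted p under 0.05, against 15.0% of all genes higher in 4n at that p. Pair 2 had the lowest ratio for each of the 34 genes, against 20.9% of all genes. The rise on leaving it out follows from that and is no separate evidence. None of the 34 passed after adjustment (edgeR adjusted p from 0.0775 to 0.174), and 0 of 13115 genes passed in that fit, whatever their function. The median was 0.26 without pair 4, and 0 of 34 passed there too (0 of 12946 genes in all). At an unadjusted p under 0.05 (edgeR), 1 of 34 was higher in 4n without pair 4, against 10.8% of all genes. The counts were 2 of 34 without pair 3 (13.1% of all genes) and 4 of 34 without pair 1 (17.2%). With Ccnb1 the fold change without pair 2 was 1.08 and with Aurka 1.05, and Mki67 had 0.35.

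Per length, the genes covered a range of levels within each group. On the deposited FPKM scale (counts relative to gene length and library total), Cdk1 was the highest, at 26.9 ± 4.67 in 2n (SD, n = 4) and 31.2 ± 6.61 in 4n, followed in 2n by Cdc20 (21.1 ± 3.98), Top2a (20.1 ± 2.47) and Mki67 (19.2 ± 3.34), which did not differ from each other beyond their spread. Kif18a was the lowest, at 1.90 ± 0.289 FPKM in 2n and 2.27 ± 0.511 in 4n. Ccnb1 had 16.8 ± 1.49 FPKM in 2n and 26.2 ± 7.54 in 4n, and Aurka 5.73 ± 1.52 and 8.93 ± 2.98. On the FPKM scale the mean of Mki67 was 18.8 ± 6.03 in 4n, no higher than in 2n. That scale divides by all counts, the mitochondrial ones included.

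Scaling sets part of the size of these differences. With libraries scaled by their total counts, the median of all genes moved to -0.26 and that of the 34 genes to 0.17, so the distance between the medians stayed at 0.43. There 858 genes were called higher and 2520 lower in all, against 554 and 79 with TMM scaling. Ccnb1 (0.59, edgeR adjusted p = 0.0392) and Aurka (0.60, edgeR adjusted p = 0.0412) passed under total count scaling, where 6.61% of all genes were called higher and 19.4% lower. Mki67 and Ncapg had fold changes of -0.07 and -0.04 there. As a share of counts outside the mitochondrial chromosome, the 34 genes took 0.161%, 0.154%, 0.135% and 0.120% in 2n replicates 1 to 4 and 0.210%, 0.129%, 0.227% and 0.219% in 4n.

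**Figure D3:**
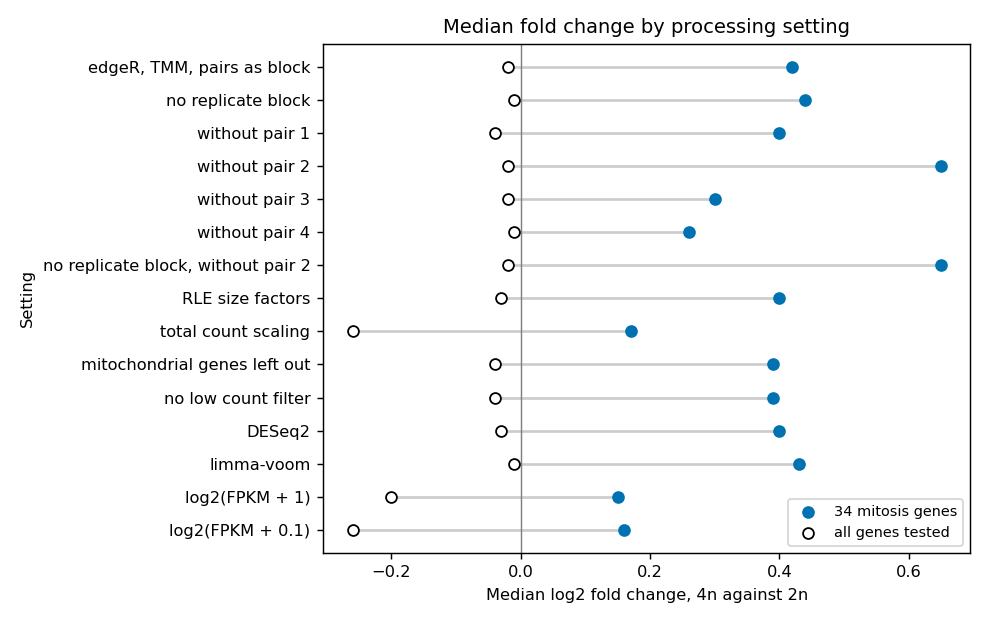
Median log2 fold change of 4n against 2n (horizontal axis) over the 34 genes (filled) and over all genes tested (open) under each processing setting (rows). The filled point lies right of the open one in every setting, by 0.28 to 0.67, and both shift left together under total count scaling and on FPKM values.

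Of 71 further genes of the mitotic pathway tested, 67 had positive fold changes, with a median of 0.33, and 0 passed in either direction (edgeR with the pairing), while 24, or 33.8%, had an unadjusted p under 0.05, all higher in 4n, against 16.9% of all genes. By pair the medians were 0.36, -0.15, 0.52 and 0.56 for replicates 1 to 4, and 43 of the 71, or 60.6%, were higher in pairs 1, 3 and 4 and lower in pair 2, against 91.2% of the 34 genes and 5.75% of all genes. In pair 2, 18 of the 71 were higher in 4n. Pbk, a mitotic kinase, came closest, with 7.44, 13.1, 10.3 and 8.52 CPM in 2n and 12.8, 14.9, 21.5 and 20.2 CPM in 4n (log2 fold change 0.82 ± 0.19 SE, edgeR adjusted p = 0.0511). The next by unadjusted p were Kpna2, an importin, at 0.74, Fam83d, a spindle protein, at 0.80, Spag5, astrin, at 0.51, Cenpw, a centromere protein, at 0.85, and Gtse1 at 0.46 (edgeR adjusted p from 0.0722 to 0.0896). Gtse1 and Cenpw were below 0 in pair 2, at -0.07 and -0.05, and the ratio of Spag5 there was 0.00.

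S phase and DNA replication genes shared the low pair 2 by median but had another order among the other pairs. Of 44 tested, 31 had positive fold changes, with a median of 0.10, 0 passed and 4, or 9.09%, had an unadjusted p under 0.05, all higher in 4n, against 16.9% of all genes. Their medians were 0.41, -0.15, 0.10 and 0.01 for pairs 1 to 4. Pair 2 had the lowest ratio for 28 of the 44, or 63.6%, against 20.9% of all genes. Higher in pairs 1, 3 and 4 and lower in pair 2 were 12, or 27.3%, against 5.75% of all genes. In pair 1, 43 of 44 were higher in 4n (49.8% of all genes), and in pair 4, 22 of 44 (48.6% of all genes). In 29 of the 44 the largest ratio was that of pair 1, against 1 of the 34 mitotic genes and 3493 of all 12983 genes. The closest were Rrm2 (0.74) and Rrm1 (0.64), the subunits of ribonucleotide reductase, Ung, a uracil glycosylase (0.51), Pola2 (0.32) and Rpa2 (0.28), which act at the replication fork, and Mcm3, a subunit of the replicative helicase (0.26), with edgeR adjusted p from 0.0667 to 0.172. Summed S phase levels were 834, 1678, 1309 and 1026 CPM in 2n and 1126, 1535, 1539 and 1093 CPM in 4n, so both libraries of replicate 2 were among the 3 highest. Replicate 2 of 4n thus had a low mitotic sum beside a high S phase sum. Its S phase sum, 1535 CPM, was still below that of 2n replicate 2, at 1678 CPM. It was level with that of 4n replicate 3, at 1539 CPM, the library with the highest mitotic sum. The difference between the mitotic and S phase lists was not tested.

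By fitted median, cytokinesis genes lay between the mitotic and the S phase lists, though in pair 1 their median was below those of all these lists. Of 16 tested, 11 had positive fold changes, with a median of 0.26, and medians by pair of 0.28, -0.29, 0.43 and 0.56, and 0 passed. At an unadjusted p under 0.05 (edgeR), 4, or 25%, were higher in 4n (16.9% of all genes) and 1 was lower (13% of all genes). Higher in pairs 1, 3 and 4 and lower in pair 2 were 9, or 56.2%, against 5.75% of all genes. Pair 2 had the lowest ratio for 12, or 75%, against 20.9% of all genes. Kif20b, a midzone motor (0.53), Cep55, which organizes abscission (0.43), Prc1, which bundles midzone microtubules (0.64), Anln, anillin (0.31), and Shcbp1 (0.47) were higher in 4n by value, and the septin Sept9 was lower (-0.33), with edgeR adjusted p from 0.102 to 0.185.

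**Figure D4:**
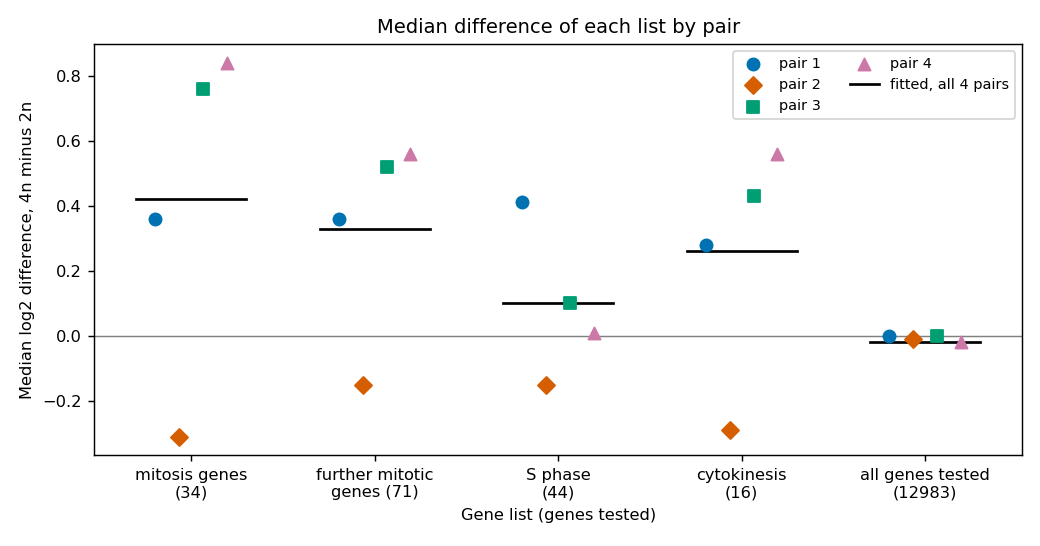
Median log2 difference of 4n minus 2n (vertical axis) for the 34 mitosis genes, the 3 related lists and all genes tested, with 1 symbol per pair and a bar for the median of the fitted fold changes. Pair 2 is below 0 in the 4 cell cycle lists, and pair 1 is the highest of the S phase list alone.

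Cell type markers had other orders of pairs than the mitotic genes. The cardiomyocyte markers, of which 11 of 11 were higher in 4n in every pair, had medians of 2.31, 4.66, 5.64 and 3.92 by pair, so pair 2 was the second highest there. Fibroblast markers were lower in 4n in all 4 pairs by median (-0.50, -0.35, -0.94 and -0.44). Endothelial markers, 7 of 8 in the table, summed to 32.9 to 63.5 CPM in 2n and to 77.7, 87.4, 95.6 and 420 CPM in 4n replicates 1 to 4. Leukocyte markers summed to 3.71 to 7.81 CPM in 2n and 4.01 to 16.7 CPM in 4n, with Cd3e at 0 everywhere and Ptprc at 0 in 4 libraries, and the erythroid markers found were at or near 0. Smooth muscle and pericyte markers summed to 5845, 9703, 7313 and 7040 CPM in 2n and 6081, 10212, 5544 and 6467 CPM in 4n, highest in both libraries of replicate 2, and epicardial markers to 65.5 to 119 CPM in 2n and 68.8 to 117 CPM in 4n. The part of these cells in the mitotic differences was not tested.

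**Figure D5:**
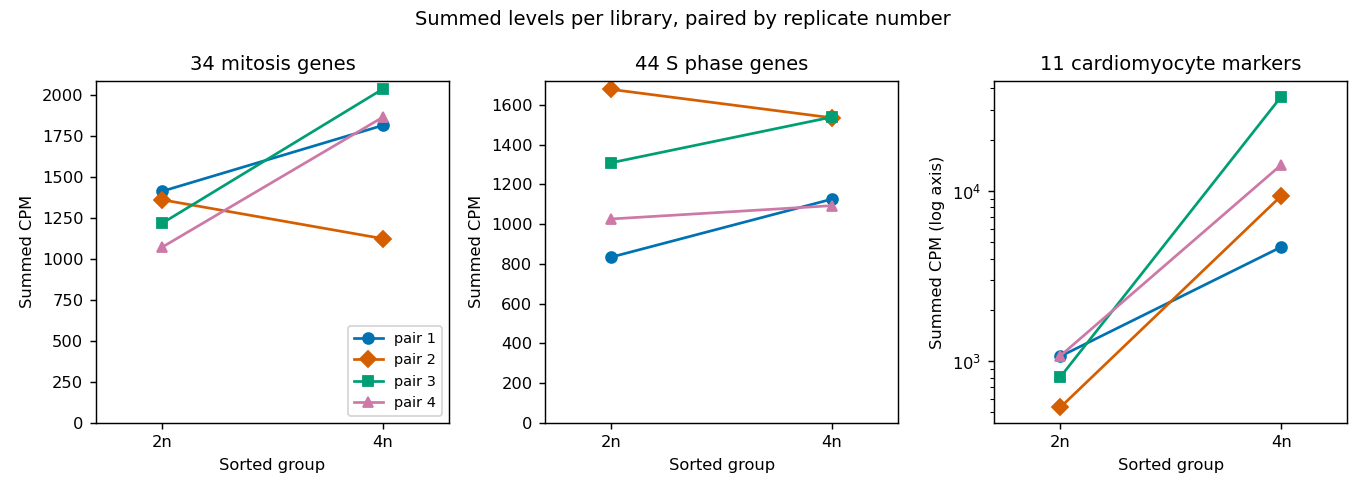
Summed CPM per library of the 34 mitosis genes, 44 S phase genes (both on linear axes from 0) and 11 cardiomyocyte markers (log axis), with a line joining the 2n and 4n library of each replicate number. The mitosis line of pair 2 falls from 1360 to 1123 CPM while the other 3 go up, and all 4 cardiomyocyte lines go up.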

How the data were processed

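The submitters' processing notes name HISAT2 2.0.4 and Rnor_6.0, a build of Rattus norvegicus, although the labels give Rattus rattus. The counter and strandedness were not given in the sources used here. Symbols and coordinates come from the deposited table, in which the authors give raw counts and FPKM values for each gene. Checked on the values, the deposited FPKM are the counts over a per-gene length and the total count of the library.

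Counts were fitted across all genes kept by filterByExpr with edgeR 4.0.16 (R 4.3.3): TMM scaling, quasi-likelihood test with robust dispersion, two-sided, Benjamini-Hochberg adjustment, threshold 0.05. The replicate number was a block, and the script was tested on simulated data. There, 88% of 2-fold and 99% of 4-fold changes were recovered, with 18 false calls among 205. That share of false calls is above the 0.05 that the adjustment aims at. Smaller folds, such as the median of 1.33 of the 34 genes, were not simulated. SEs were computed from fold changes and F statistics. Pair ratios use log2 CPM with a prior count of 2. Descriptions of same-numbered libraries share a leading code, and their deviations from the group means correlated at 0.43, 0.58, 0.27 and 0.65 for replicates 1 to 4, and the replicate numbers were therefore treated as pairs. Libraries of a group differed by more than sampling noise. Alternatives were the fit without the block, each pair left out, RLE and total count scaling, mitochondrial genes left out, no count filter, DESeq2 1.42.0, limma-voom 3.58.1, and limma on FPKM with pseudocounts of 1 and 0.1.

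Members and lists were chosen with earlier results of these data known. Values per library are given for the gene with the smallest and the largest unadjusted p of each of 9 role groups and for Ccnb1, Cdk1, Plk1, Aurkb, Top2a and Mki67, and up to 6 genes with the smallest p are named from each of 3 related lists. Of the further mitotic genes, 3 were matched by an older symbol and 3 not found, and 1 cytokinesis gene was not found. No sequences were used here.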

Additional observations from a re-analysis of the deposited data

Results flagged for a closer look

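In 3 of the 70 sets of 4 libraries examined, 1 library stood far from the other 3; chance gives about 5% of such sets. Cdc20 was at 31.6 CPM in 4n replicate 2 and between 59.7 and 64.8 CPM in the other 4n libraries. Cenpf was at 115 CPM in 2n replicate 1 and between 65.4 and 71.7 CPM in the other 2n libraries. Kif4a was at 24.1 CPM in 2n replicate 4 and between 28.5 and 29.4 CPM in the other 2n libraries.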

How the results depend on the processing

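All 34 mitotic genes kept a positive fold change under the fit without the replicate block, each pair left out, RLE scaling, the mitochondrial genes left out, no count filter, DESeq2 and limma-voom. Under total count scaling, log2(FPKM + 1) and log2(FPKM + 0.1), Mki67 turned to -0.07, -0.06 and -0.07 and Ncapg to -0.04, -0.04 and -0.04. The number of the 34 called higher was 0 in the main fit and without the replicate block, 0 to 1 on leaving out a pair, 2 with total count scaling, 3 with DESeq2 and 1 with limma-voom; 0 were called lower in any setting. Their median, 0.42, was 0.44 without the block and between 0.26 and 0.65 on leaving out a pair. Over all genes the calls, 554 higher and 79 lower, were 347 and 1 without the replicate block, 0 to 1254 and 0 to 399 on leaving out a pair (558 and 50 without replicate 3), 0 and 0 without the block and pair 2, 858 and 2520 with total count scaling, 1322 and 564 with DESeq2, 895 and 157 with limma-voom, and 2021 and 466 lower on log2(FPKM + 1) and log2(FPKM + 0.1). Leaving out a pair also lowers the number of samples. Among further mitotic genes, 3 were called higher with total count scaling, 4 with DESeq2, and 1 each with no count filter, limma-voom and log2(FPKM + 1). Of the S phase genes, 2 were called higher with DESeq2 and 2 lower with total count scaling, and their median was -0.14, -0.13 and -0.14 with total count scaling and the FPKM settings. It was between -0.03 and 0.19 on leaving out a pair. Of the cytokinesis genes, 1 was called lower with total count scaling and 1 on log2(FPKM + 1). Over all genes, 6.61% were called higher and 19.4% lower with total count scaling, and 8.94% higher with DESeq2. The shares called higher were 2.7% with no count filter, 6.89% with limma-voom and 5.76% on log2(FPKM + 1), where 15.6% were called lower. The cause of these changes between settings was not tested. The block changed no call among the 34 genes. Promoter motifs were not run.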

Other observations

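In 4n replicate 2, most S phase and mitotic genes lay within the range of the 2n libraries, 36 of 44 and 22 of 34. Of the S phase genes, 8, or 18.2%, were above all 4 2n libraries (Pcna, Rrm2, Cdt1, Gins2, Prim1, Fen1, Ung and Rpa2) and 0 below them, and of the mitotic genes 2 were above and 10, or 29.4%, below (Bub1b, Pttg1, Cenpe, Cenpf, Ndc80, Birc5, Cdca8, Kif2c, Kif4a and Mki67). Over all genes 24.9% were above and 23.3% below. These genes were named after their values were seen, and the difference was not tested. Of 16 cytokinesis genes, 9 were within the 2n range in that library, Ect2, Kif23, Kif20a, Cit and Kif14 below it, and Rhoa and Sept7 above it.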
